A study of Rattus norvegicus with 3 samples.

Results

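The cytoplasmic ribosomal protein genes were followed through thymocyte development and across the thymic stroma of Lewis rats. Members were chosen by name: symbols of the form Rpl or Rps followed by a number, Rplp0 to Rplp2, and Rpsa. This gave 78 of 34034 features, 32 of the small subunit and 46 of the large subunit. All 78 had UMIs (unique molecular identifiers, which count captured RNA molecules) in both libraries. The symbols Fau and Rack1, which encode further proteins of the same ribosome, lie outside the name rule and were described separately.

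Both droplet libraries came from thymi of 8-week-old Lewis rats, with 1 library per group. One was made from thymocytes released with collagenase D and DNase I, and the other from stroma sorted as CD45 negative after digestion with Liberase TH and DNase I. No treatment or genotype differed between them, and how many animals went into each is not given in the sources used here. The section profiled by Stereo-seq carried no per-gene values among the files used and was not analysed here. With 1 library per group, no test was possible, and every interval below covers counting error only at 95%.

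The thymocyte library held 8546 annotated cells with a median of 3994 UMIs, and ribosomal protein genes took 22.0% of its UMIs. The stromal library held 13226 annotated cells with a median of 9087.5 UMIs, and the same genes took 11.7%. The median cell had UMIs from 76 of the members in the thymocyte library and from 77 in the stromal library. Small-subunit genes made up 42.0% and 41.5% of ribosomal protein UMIs, respectively. Cell labels were the authors', and 28 annotated barcode strings occurred in both libraries. The labels were derived from the same counts, so a label and its ribosomal protein share are not independent. Among defining markers, the DN list (Il2ra, Kit, Notch1 and Hes1) was highest in gdT, at 495 CPM, and not in DN. CPM here means UMIs of a gene per 1000000 UMIs of the label.

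Each ribosome joins a small subunit, which reads the messenger RNA, to a large subunit, which forms the peptide bond. The stalk of the large subunit, built from Rplp0, Rplp1 and Rplp2, recruits elongation factors. Subunits are assembled in the nucleolus by a large set of biogenesis factors, and growing or dividing cells make more of both. In the thymus, double-negative (DN) cells expand, proliferating double-positive cells (DP-P) leave the cycle as small resting DP cells, and selected cells mature into CD4 or CD8 single-positive (SP) cells. Messenger RNAs of ribosomal proteins are known for a tract of pyrimidines that opens with a C at the transcription start, through which growth signals control their translation.

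Because of this tract, start regions are shown for members whose levels differed least and most between DN, DP and the mature class, and for Rplp1 and Rpl22. Rpl30, also among the least different, had no entry. Each sequence has 20 bases before and 10 bases from the annotated start, on the gene's strand, from RefSeq promoters of build GRCr8. Capitals mark a C at the start followed by at least 4 pyrimidines.
Rpl35a: gcgcggcgggtcttgccttcCTCTTTCCgc
Rps27: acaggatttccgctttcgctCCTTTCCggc
Rpl34: gcccgccccttccttttcctCTTCCgggga
Rpl19: gagcccgcgaccagcaagctCTTTCCTTTC
Rpl26: gagatctcgtgtcaacttacagaaccggaa
Rplp1: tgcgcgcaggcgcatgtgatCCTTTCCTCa
Rpl22: cctgcgtagtgcgcccccctCCCTTTCTgc
Rps2: gcctccctcttctttttcttcgggaaaaca
Rpl36a: aggcaccgcctataaacttccgttgctgct
Rpl3: ctgcaccagcgcctgctcgatctctatcgg
Rps19: cgacgcccgacttgtgcgcccgggaaaccc

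These windows lie at chr11:81235012-81235041 (minus strand, Rpl35a), chr2:177964597-177964626 (minus, Rps27), chr2:221962274-221962303 (minus, Rpl34), chr10:83519044-83519073 (plus, Rpl19) and chr10:54109672-54109701 (plus, Rpl26). Those of Rplp1 and Rpl22 lie at chr8:71290863-71290892 (minus) and chr5:168117941-168117970 (plus). Those of Rps2, Rpl36a, Rpl3 and Rps19 lie at chr10:14251828-14251857 (plus), chrX:102059429-102059458 (plus), chr7:113507981-113508010 (minus) and chr1:89608668-89608697 (plus). Promoter entries matched 63 of the 78 members through 64 sequences. The run stood exactly at the annotated start in 24 of these 64, or 37.5%, against 2.63% of 33469 promoters of all genes. Allowing the run to begin within 5 bases of the start gave 64.1% of the members' promoters and 17.0% of all. The annotated start may differ by some bases from the one used in thymus, which was not tested: Rps2 has a long pyrimidine stretch just before its annotated start.

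Ribosomal protein genes took a large share of RNA in DN cells, a small share in resting DP cells and a large share again in mature SP cells. The share was 28.0% (28.02 to 28.07) in the 390 DN cells. It was 23.0% (23.01 to 23.05) in the 848 DP-P cells and 15.9% (15.92 to 15.95) in the 5202 DP cells. The share of DP over that of DN was 0.568 (0.567 to 0.569). The median DP cell stood at 14.2%, with quartiles of 11.1% and 18.0%, and the median DN cell at 28.1%, with quartiles of 25.1% and 30.5%. The interquartile ranges of the cells of these labels therefore did not overlap. Counted per cell, the mean was 7789 ribosomal protein UMIs in DN and 579 in DP.

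Over all cells, labels of signalled and immature cells ran from the DP level up to the level of the mature class. Pre DP-sig cells were at 16.3% and DP-sig cells at 16.0%, close to DP. Immature CD4-1 and Immature CD8-1 cells were at 19.98% and 20.5%. Immature CD4-2 cells were at 23.5%, intCD4 cells at 25.0% and Immature CD8-2 cells at 29.96%, within the range of the 4 mature labels. In cells of 6000 to 12000 UMIs the first part of this rise was smaller. DP was at 19.8% there, Pre DP-sig at 19.8%, DP-sig at 18.3%, Immature CD4-1 at 20.4% and Immature CD8-1 at 20.1%. Immature CD4-2 was at 23.8%, intCD4 at 28.1% and Immature CD8-2 at 29.4%. In cells of 3000 to 6000 UMIs, DP was at 16.3%, DP-sig at 15.9%, Immature CD4-1 at 20.2% and Immature CD8-1 at 20.6%.

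The 4 mature labels together, with 366 cells, were at 29.8% (29.77 to 29.87). That was 1.87 times (1.868 to 1.875) the share of DP and 1.06 times (1.061 to 1.065) that of DN. The mean mature cell had 2959 ribosomal protein UMIs. Mature CD4-2 and Mature CD8-2 were at 26.3% and 27.4%, and Mature CD4-1 and Mature CD8-1 at 31.7% and 33.5%. Mature CD8-1 had the highest share of the 21 labels of at least 20 cells, and it was 2.10 times the lowest, that of DP. Without Mature CD8-1 the mature class was 1.02 times DN. Among other T-lineage labels, AgoSel1 was at 21.9%, AgoSel2 at 28.0%, Pre-Treg at 28.0%, Treg at 28.5% and gdT at 28.8%. Mature cycling T cells, at 24.2%, were below each of the 4 mature labels.

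**Figure D1:**
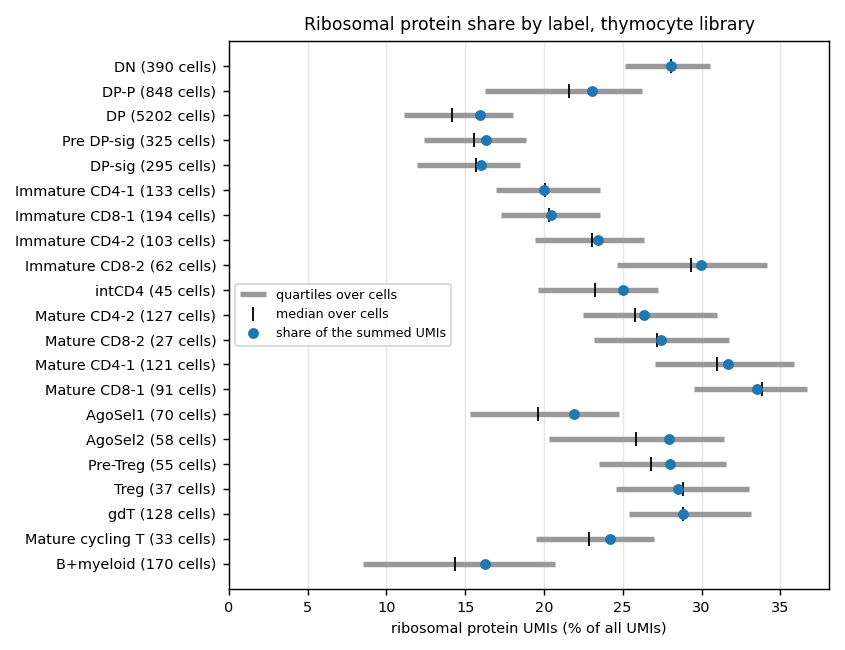
Share of ribosomal protein UMIs (x axis, % of all UMIs) for the 21 labels of at least 20 cells in the thymocyte library. Blue points are the share of the label's summed UMIs, grey bars the quartiles and black ticks the median over cells. DP sits lowest at 15.9% and Mature CD8-1 highest at 33.5%.

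Depth, mitochondrial RNA and cycling genes differed along the same course. The median cell had 23190 UMIs in DN, 15439 in DP-P, 3205.5 in DP and 9571.5 in the mature class. The 15 mitochondrial genes took 3.72% of UMIs in DN, 8.42% in DP and 7.24% in Mature CD4-1. The 7 cycling genes summed to 1915 CPM in DN, 4212 CPM in DP-P, 68.2 CPM in DP and 101 CPM in the mature class. The part of mitochondrial RNA and cycling in the share was not tested. DP-P had the highest cycling sum of all labels and a ribosomal protein share between those of DP and DN.

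At matched depth DP remained below DN and below each mature label shown, by less than over all cells. Among cells of 6000 to 12000 UMIs, the share was 27.3% in 91 DN cells, 17.9% in 217 DP-P cells and 19.8% in 404 DP cells. In the same window it was 27.8% in Mature CD4-2, 31.5% in Mature CD4-1 and 32.7% in Mature CD8-1. DP over DN was 0.723 there, the mature class over DP was 1.53 and the mature class over DN was 1.11. Mature CD4-2 was above DN in this window and below it over all cells. DP-P was below DP in this window, the opposite of their order over all cells. Among cells of 3000 to 6000 UMIs, DP-P was above DP, at 20.1% (31 cells) against 16.3% (2598 cells). Within DP, deeper cells had a higher share: 12.8% at 1000 to 3000 UMIs, 16.3% at 3000 to 6000 and 19.8% at 6000 to 12000. Within DN it was 27.3% at 6000 to 12000, 27.6% at 12000 to 24000 and 28.2% in cells of at least 24000 UMIs. Thinning every cell to 1000 UMIs, which leaves out 51 shallower cells of this library, gave 0.536 for DP over DN and 2.02 for the mature class over DP. Thinning keeps each cell's expected share and gives cells equal weight, so it does not match cells by depth. The means of single cells gave nearly the same ratios, 0.531 and 2.03.

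**Figure D2:**
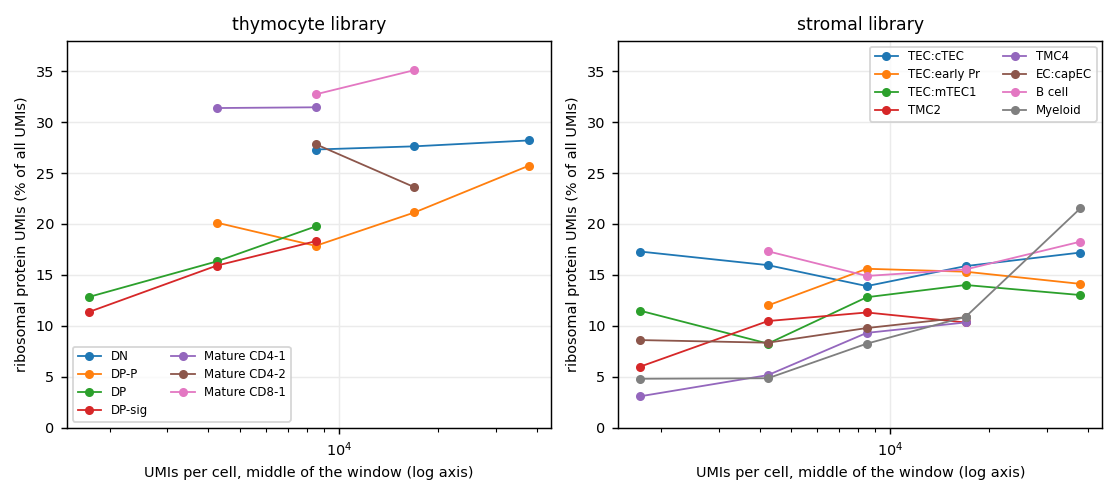
Share of ribosomal protein UMIs (y axis, % of all UMIs) by the depth of the cells (x axis, UMIs per cell on a log axis) for 7 labels of the thymocyte library and 8 of the stromal library. Each point sums the cells of 1 window, and lines join windows of a label. DN and the mature labels lie above DP and DP-sig in the window of 6000 to 12000 UMIs, where all of them have cells.

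Gene by gene, most members followed the total. Of the 78 members, 57 were at least 1.5-fold lower in DP than in DN and 0 were at least 1.5-fold higher. Over the 10244 genes with at least 100 UMIs, 26% were that much lower and 39.6% that much higher. The members' median log2 ratio was -0.88, against 0.27 over all genes. From DP to the mature class, 69 members were at least 1.5-fold higher and 1 was lower. Over 9631 genes, 15.3% were that much higher and 35.1% lower. The median log2 ratio was 0.87 for the members and -0.32 for all genes. Both comparisons use the same DP cells and are not independent. Scaled to totals without ribosomal protein and mitochondrial genes, 65 members were lower in DP and 76 higher in the mature class, while all genes split into 34.9% higher and 29.1% lower in the first comparison and 21.6% and 23.1% in the second. Between the mature class and DN, 2 members were 1.5-fold higher and 1 was lower, a smaller share than the 21.5% and 32.4% of 8767 genes. At matched depth (6000 to 12000 UMIs), 22 members were 1.5-fold lower in DP than in DN and 0 higher, against 16.9% and 38.3% of all genes, and all 78 were below DN in DP. There 43 members were higher in the mature class than in DP and 0 lower, against 13.4% and 33.0% of all genes. The members' median log2 ratio was -0.47 and 0.62 in these comparisons.

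Both subunits moved together. From DN to DP, small-subunit genes went from 11.9% to 6.49% of all UMIs, a ratio of 0.548, and large-subunit genes from 16.2% to 9.45%, a ratio of 0.583. In the mature class they stood at 12.9% and 16.9%. The share of ribosomal protein UMIs taken by small-subunit genes ranged only from 40.7% to 43.8% over the 21 labels. Within the large subunit, the 3 stalk genes had a ratio of 0.501 (0.497 to 0.504) in DP over DN and 2.16 (2.14 to 2.18) in the mature class over DP. Rplp1 went from 8384 CPM in DN to 3867 CPM in DP and 10660 CPM in Mature CD8-1, and Rplp2 from 3904 to 2032 and 4645 CPM. Rplp0, the scaffold of the stalk, was at 5350, 2931 and 6035 CPM in the same labels.

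Among small-subunit genes, Rps2 and Rps19 differed most. Rps2, which lines the entry of the messenger RNA channel, had 62229 UMIs in DN (5745 CPM) and 27225 in DP (1439 CPM). Its ratio of 0.251 (0.247 to 0.254) was the lowest of all members over all cells, and its start carried no marked run. At matched depth the ratio was 0.568, and that of Rps19, 0.535, was the lowest. In the mature class it was back at 4913 CPM, 3.41-fold above DP (3.35 to 3.48). Rps19, the gene most often mutated in Diamond-Blackfan anaemia, was at 2804 CPM in DN, 983 CPM in DP and 4270 CPM in the mature class. Its ratio of the mature class over DP, 4.35 (4.26 to 4.44), was the highest of all members, and it was 1.52-fold (1.49 to 1.55) above DN. At matched depth the first ratio was 2.80, also the highest. Rps6, the phosphorylated target of S6 kinase, was at 2975 CPM in DN, 1342 CPM in DP and 2389 CPM in Mature CD4-1, below DN. Rps18 was at 5406, 2076 and 6836 CPM and Rps28 at 2184, 1056 and 3136 CPM in the same 3 labels. Rpsa, also known as the laminin receptor, was at 3546, 1563 and 3481 CPM.

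In contrast, Rps27 hardly differed between DN and DP. Rps27, a zinc-finger protein of the small subunit, had 3748 CPM in DN and 3338 CPM in DP, a ratio of 0.891 (0.880 to 0.902), and 5594 CPM in the mature class. Its paralog Rps27l, which is known as a p53 target and lies outside the name rule, took another course. Rps27l was at 484 CPM in DN, 329 CPM in DP-P, 81.3 CPM in DP and 57.1 CPM in Mature CD4-1, its lowest label. Mature CD4-1 thus had more Rps27 (6039 CPM) and less Rps27l than DN. In Mature CD8-2, Rps27l was at 176 CPM, above DP.

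Among large-subunit genes, Rpl3 and Rpl36a had the lowest DP levels relative to DN over all cells. Rpl3, which lies next to the peptidyl transferase centre, was at 3204 CPM in DN, 996 CPM in DP and 3169 CPM in the mature class, with ratios of 0.311 (0.305 to 0.316) and 3.18 (3.11 to 3.26). Rpl36a was at 2815 CPM in DN and 848 CPM in DP, a ratio of 0.301 (0.295 to 0.307). At matched depth DP over DN was 0.572 for Rpl3 and 0.604 for Rpl36a, and Rpl22, at 0.568, was the lowest of the large subunit. Rpl3 was then 2.05-fold higher in the mature class than in DP. Rpl36al1, the paralog of Rpl36a outside the name rule, varied less than Rpl36a, from 742 CPM in DN to 538 CPM in DP and 872 CPM in Mature CD4-1. Reads of near-identical copies can be split between such genes, so their separate levels are uncertain.

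Rpl22 has a known role in thymus, since its loss in mice blocks early alpha-beta T-cell development. It was at 2532 CPM in DN, 2094 CPM in DP-P, 964 CPM in DP and 2622 CPM in Mature CD8-1. Its paralog Rpl22l1 was at 985 CPM in DN, 645 CPM in DP-P, 335 CPM in DP and 898 CPM in Mature CD8-1. Of the labels given here, both genes were lowest in DP. Rpl5 and Rpl11, which can bind Mdm2 when ribosome assembly fails, differed in size of change. Rpl5 was at 2411 CPM in DN, 1154 CPM in DP and 2720 CPM in Mature CD4-1, and Rpl11 at 4120, 2762 and 4577 CPM.

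Rpl35a, Rpl30 and Rpl34 were nearly level between DN and DP. Rpl35a had the highest ratio of all members over all cells, 1.12 (1.09 to 1.15), from 861 CPM in DN to 967 CPM in DP, and was at 1336 CPM in the mature class. At matched depth its ratio was below 1, at 0.917, and that of Rpl30, 0.925, was the highest. Rpl30 had a ratio of 0.861 (0.840 to 0.882). Rpl34 was at 3612 CPM in DN, 3093 CPM in DP and 4272 CPM in the mature class. Rpl19 and Rpl26 had the smallest ratios of the members above 1 in the mature class over DP, at 1.24 (1.22 to 1.26) and 1.27 (1.25 to 1.30). At matched depth Rpl19 was level, at 5575 CPM in the mature class and 5453 CPM in DP. Rpl4, Rpl10a and Rpl23a had the lowest ratios of the mature class over DN among members with at least 100 UMIs on each side, at 0.757, 0.762 and 0.798.

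**Figure D3:**
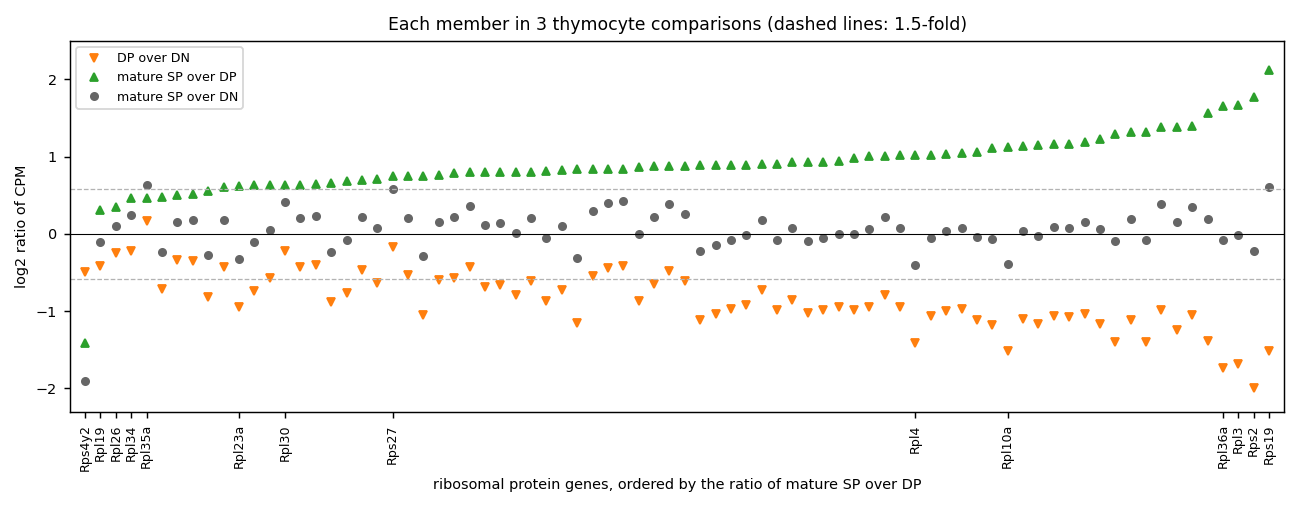
Log2 ratio of CPM (y axis) for each of the 78 members (x axis, ordered by the mature class over DP, with the members of the highest and lowest ratios named) in DP over DN, the mature class over DP and the mature class over DN. Dashed lines mark 1.5-fold. Rps19 lies at 2.12 in the mature class over DP and Rps2 at -1.997 in DP over DN, and most ratios of the mature class over DN lie between the dashed lines.

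Rps4y2, a relative of the X-linked Rps4x, had few UMIs and went its own way. It had 168 UMIs in DN (15.5 CPM), 208 in DP (11.0 CPM) and 15 in the mature class (4.13 CPM). It was the only member more than 1.5-fold lower in the mature class than in DP, at a ratio of 0.376 (0.222 to 0.634). Rps4x was at 4710 CPM in DN, 2989 CPM in DP and 5429 CPM in Mature CD4-1. Their UMIs may be shared in part through sequence likeness, which was not tested.

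Members with the marked pyrimidine run exactly at the annotated start had somewhat smaller median changes than those without, with overlapping quartiles. The group without is mixed: 41 of the 64 promoters had a run within 5 bases of the start, against 24 exactly at it. The split therefore cannot decide whether the run goes with the size of change. For DP over DN the median log2 ratio was -0.73 over the 24 members with the run at the start and -0.95 over the 39 without. For the mature class over DP it was 0.83 and 0.93, and for epithelial over fibroblast labels 0.31 and 0.41. The quartiles of the groups overlapped in each comparison, at -1.06 to -0.43 against -1.11 to -0.62 in the first. Of the printed sequences, Rpl35a, Rps27 and Rpl34 carry the run and differed little between DN and DP. Rplp1 and Rpl22 also carry it and had log2 ratios of -1.12 and -1.39. Rpl26 lacks the run and was among the members with the smallest ratios of the mature class over DP.

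Outside the name rule, Rack1 was lower in DP than in DN as well, and Fau was nearly level. Fau, which is made as a fusion with a ubiquitin-like protein, was at 3097 CPM in DN, 2910 CPM in DP and 3665 CPM in Mature CD4-1. Rack1, a scaffold on the small subunit, was at 1994, 1122 and 2172 CPM. Rps27a, a member that is made as a fusion with ubiquitin, was at 5570, 2583 and 5639 CPM.

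Over all cells, ribosome biogenesis genes changed more than the ribosomal proteins from DN to DP and did not return to the DN level. Of 42 such genes, 37 were at least 1.5-fold lower in DP than in DN and 0 were higher, with a median log2 ratio of -1.77, beside 26% and 39.6% of all genes. In the mature class, 30 of 40 with enough UMIs were higher than in DP and 1 was lower, with a median of 1.05, beside 15.3% and 35.1% of all genes. Against DN, 25 of 42 were lower in the mature class and 0 were higher, with a median of -0.75, beside 32.4% and 21.5%. The members' median in that comparison was 0.07. Depth differed between these labels, and no values at matched depth are given for this list. The members' own median for DP over DN went from -0.88 over all cells to -0.47 at matched depth. Nucleolin (Ncl), a major nucleolar protein, was at 1247 CPM in DN, 267 CPM in DP and 308 CPM in Mature CD4-1. Npm1, nucleophosmin, was at 2299, 565 and 1278 CPM, and Nop58, of the methylation complex that modifies ribosomal RNA, at 332, 69.1 and 109 CPM.

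Of 20 translation elongation genes and other genes with start tracts, 11 were lower in DP than in DN and 12 were higher in the mature class than in DP, with 0 in the opposite directions. Over all genes 26% were lower in the first comparison and 15.3% higher in the second. Tpt1, an abundant transcript with such a tract, differed from the ribosomal proteins: 4707 CPM in DN, 5223 CPM in DP and 9006 CPM in Mature CD4-1. Growth regulators were mixed, with 6 of 20 higher and 7 lower in DP than in DN, beside 39.6% and 26% of all genes. Myc, which drives ribosome production, was at 36.2 CPM in DN, 5.29 CPM in DP and 45.3 CPM in Mature CD4-1, and highest in AgoSel2 at 97.5 CPM.

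The step between the mature CD4 labels touched all members by a small amount. All 77 members with enough UMIs had a ratio above 1 in Mature CD4-1 over Mature CD4-2, from 0.15 to 0.42 on the log2 scale. Their median was 0.26, against -0.15 over all genes. None of them passed 1.5-fold, as against 0.784% of 3443 genes higher and 10.7% lower. The total was 1.20 times (1.197 to 1.207) as high. Among cells of 6000 to 12000 UMIs the shares were closer, at 31.5% (86 cells) and 27.8% (87 cells). Mature CD4-2 cells of 12000 to 24000 UMIs were at 23.6% (28 cells). Rpl12, Rps19 and Rps18 had the largest ratios, at 1.34, 1.33 and 1.32, and Rps6 the smallest, at 1.11. S1pr1, the receptor used to leave the thymus, was at 219 CPM in Mature CD4-1 and 152 CPM in Mature CD4-2.

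Highest levels of the members gathered in a few labels. No such counts over all genes are given, so these describe the members only. They also follow in part from the summed share, which was highest in Mature CD8-1, at 33.5%. Over labels of at least 20 cells, 52 of 78 members were highest in Mature CD8-1, 8 in Mature CD4-1, 7 in DN and 4 in gdT. The lowest level was in B+myeloid for 34 members, in DP for 26 and in DP-sig for 15. B+myeloid cells, which are not T cells, had a share of 16.3%.

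Across 17 thymocyte-library labels of at least 50 cells, and among 6816 genes, the 5 genes whose levels ran most like the summed members included Rack1 (Pearson r 0.993), Naca (0.945), Eef2 (0.939) and Rps14-ps7 (0.921). Naca binds nascent chains at the ribosome, Eef2 is the translocation factor of elongation, and Rps14-ps7 is named as a pseudogene of a member. Across 18 stromal labels, among 10319 genes, the 5 were Trmt112 (0.865), Naca (0.861), Rack1 (0.859), Rps7-ps23 (0.854) and Fau (0.852). The labels of a library share its preparation and differ in depth, and these values are a description.

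Within the stroma, labels differed less than 2-fold over all cells. Of the 24 labels of at least 20 cells, B cell was highest at 16.5% and TEC:mimetic(tuft) lowest at 8.72%, a ratio of 1.89. Among epithelial labels (TEC), cTEC of the cortex and early Pr were level at 15.3% each. They were followed by mTEC1 at 13.2%, mTEC-prol at 11.8% and mTEC2 at 10.6%. Labels named for mimetic cells, which resemble peripheral tissues, were at 9.40% (muscle), 9.28% (goblet) and 8.72% (tuft). The cycling label mTEC-prol, with 1018 CPM of cycling genes, was below mTEC1, with 120 CPM. The order of the highest labels depended on depth. Among cells of 6000 to 12000 UMIs, B cell was at 14.9% (36 cells), early Pr at 15.6% (556 cells) and cTEC at 13.9% (192 cells). At 12000 to 24000 UMIs they were at 15.5%, 15.3% and 15.9%.

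**Figure D4:**
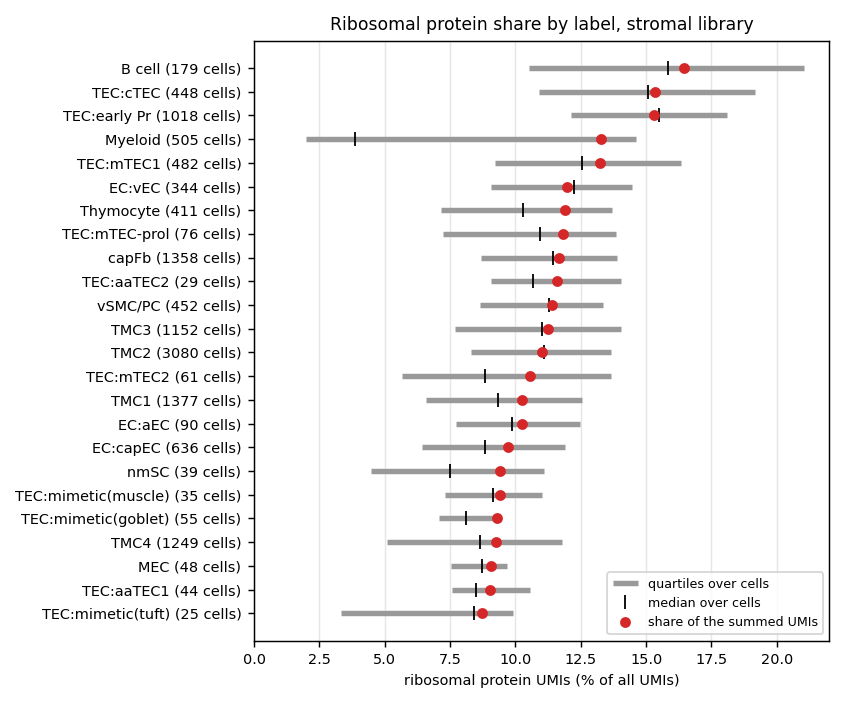
Share of ribosomal protein UMIs (x axis, % of all UMIs) for the 24 labels of at least 20 cells in the stromal library. Red points are the share of the label's summed UMIs, grey bars the quartiles and black ticks the median over cells. The Myeloid label has its summed share of 13.3% far above its median cell at 3.85%.

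Fibroblast and endothelial labels were close to each other. The labels TMC1 to TMC4 and the capsular fibroblasts (capFb) were pooled here as fibroblast labels. The capFb cells were at 11.7%, TMC3 at 11.2%, TMC2 at 11.0%, TMC1 at 10.3% and TMC4 at 9.24%. Venous endothelium (EC:vEC) was at 12.0%, arterial (EC:aEC) at 10.3% and capillary (EC:capEC) at 9.73%. The vSMC/PC label of mural cells was at 11.4%. Among close labels the order depended on depth. In cells of 6000 to 12000 UMIs, EC:capEC was at 9.78% and EC:aEC at 9.61%. At 12000 to 24000 UMIs they were at 10.84% and 10.76%. TMC1, TMC2 and TMC4 were at 9.66%, 11.3% and 9.31% in the first window and at 11.3%, 10.3% and 10.3% in the second. Epithelial labels together, with 2304 cells, were at 13.9% and fibroblast labels, with 8216 cells, at 10.8%, a ratio of 1.29 (1.289 to 1.292). Without TEC:early Pr and TEC:cTEC that ratio was 1.11. Endothelial labels together were at 10.7%, a ratio to fibroblasts of 0.991 (0.989 to 0.993). This ratio went above 1 in cells of 12000 to 24000 UMIs, at 1.01, by cluster, at 1.004, and without mitochondrial and haemoglobin genes, at 1.0004. Median depths were 11345.5 UMIs in epithelial, 7187 in endothelial and 9006.5 in fibroblast cells.

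Single members showed small differences between stromal classes. Epithelial cells had 7 members at least 1.5-fold higher than fibroblasts and 1 lower, against 28.5% and 21.1% of 15203 genes. The members' median log2 ratio was 0.37, against 0.14 over all genes. Rps19 was the highest, at 1365 CPM against 742 CPM, a ratio of 1.84 (1.82 to 1.86). Rpl3 followed at 1.74 and Rpl27a at 1.70. Rpl10 was level, at 1687 CPM and 1785 CPM. Thus Rps19 and Rpl3, among the most variable members in thymocytes, were also the highest in epithelium over fibroblasts.

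In endothelium over fibroblasts, 2 members were at least 1.5-fold higher and 0 lower, against 19.7% and 27.4% of 14023 genes. One of them, Rps4y2, was at 76.5 CPM against 44.8 CPM, a ratio of 1.71 (1.57 to 1.85). In epithelium Rps4y2 was at 18.7 CPM, a ratio to fibroblasts of 0.418 (0.382 to 0.457). It therefore varied more by label than any other member in this library, from 3.17 CPM in TEC:aaTEC1 to 83.8 CPM in EC:capEC. The low end rests on very few UMIs of this rare gene, since TEC:aaTEC1 had 44 cells and 630432 UMIs over all genes. Stalk genes were lower in endothelium, with a ratio of 0.850 (0.842 to 0.858), and Rplp0 had the lowest ratio of the members, 0.778.

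Between epithelial labels, cTEC (448 cells) had 1.45 times (1.444 to 1.463) the share of the medullary label mTEC2 (61 cells). Among cells of 12000 to 24000 UMIs, cTEC was at 15.9% (155 cells) and mTEC2 at 8.53% (21 cells). Over all cells, 32 members, or 41.0%, were at least 1.5-fold higher in cTEC and 1 was lower, against 32.4% and 17.7% of 8143 genes. The members' median log2 ratio was 0.52, against 0.22 over all genes. Rpl7 was at 3030 CPM in cTEC and 1501 CPM in mTEC2, a ratio of 2.02 (1.91 to 2.13), and Rps4x at 3619 and 1826 CPM. Rpl27 was level, at 773 and 827 CPM. Rps4y2 was the member that was lower in cTEC, at 17.2 CPM against 73.1 CPM. Rps27l, outside the name rule, had its highest stromal level in mTEC2, at 442 CPM, against 277 CPM in cTEC.

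The Myeloid label held cells of very unlike shares. Of its 505 cells, 284 were under 5% and 126 were at or above 15%. Csf1r, the receptor that marks monocytes and macrophages, had a UMI in 59 cells, or 11.7%, against 0.791% of fibroblast-label cells, which should lack it. Csf1r is 1 of 7 listed myeloid markers, with Lyz2, Cst3, Itgam, C1qa, C1qb and Cd68. Summed, that list was highest in EC:capEC, at 6703 CPM, and not in Myeloid. The 59 cells, with a median of 20116 UMIs, were at 25.9% (25.80 to 25.95), and the other 446, with a median of 8219.5 UMIs, at 9.95% (9.92 to 9.97). A Csf1r UMI is more likely to be caught in a deeper cell. C1qa and C1qb, macrophage complement genes, had 0 UMIs in the label. S100a8 and S100a9, abundant in neutrophils, were examined after these values were seen. The 290 cells with at least 100 of their UMIs had a share of 4.40% and a median of 9763 UMIs. The other 215 cells had a share of 23.9% and a median of 7991 UMIs. UMIs of S100a8 and S100a9 count in the total, with a median of 1747.5 in the 290 cells. The split therefore lowers the share of those cells in part by arithmetic. Depth differed along with the share: the 284 cells under 5% had a median of 7104 UMIs and the 126 cells at or above 15% had 16723. Over the whole label the share was 4.85% in cells of 3000 to 6000 UMIs, 10.9% at 12000 to 24000 and 21.5% in cells of at least 24000. The parts of depth and of the S100a8 and S100a9 UMIs in these differences were not tested.

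**Figure D5:**
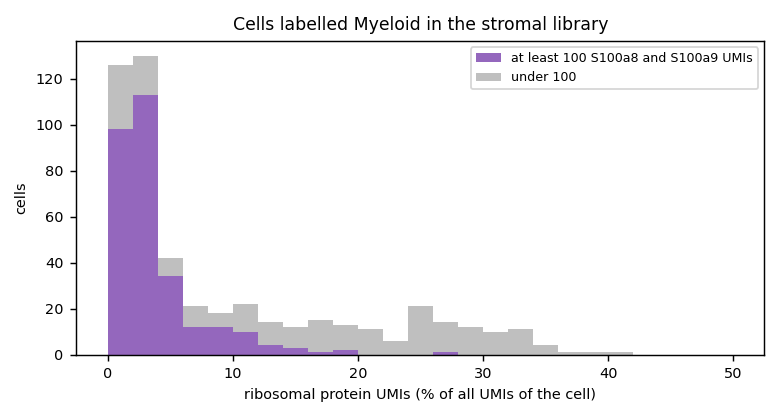
Number of cells (y axis) of the Myeloid label of the stromal library by ribosomal protein share (x axis, % of the cell's UMIs), stacked by whether a cell had at least 100 UMIs of S100a8 and S100a9. Of the 505 cells, 284 lie under 5%, and the cells with at least 100 such UMIs sum to a share of 4.40%.

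Thymocytes were also captured in the stromal library, despite the CD45-negative sort. These 411 cells had a share of 11.9% and a median of 2648 UMIs. In cells of 3000 to 6000 UMIs they were at 14.9% (85 cells), and all thymocyte labels of the thymocyte library were at 17.1% (3439 cells) and its DP cells at 16.3%. In cells of 6000 to 12000 UMIs the values were 11.9% (39 cells) and 23.4% (1376 cells). The mix of stages and the preparation both differ between these libraries and cannot be told apart. For that reason no difference was drawn between labels of separate libraries.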

How the data were processed

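Deposited UMI counts of both libraries are whole counts per gene and barcode, which the authors produced in Cell Ranger (version 8.0.0), per the file headers. Build mRatBN7.2 and Seurat 5.3.0 appear in the submitters' processing notes. The authors' mitochondrial percent per cell matched only the mitochondrial ribosomal RNA genes, so 15 mitochondrial genes were counted here. Labels are the authors' projected label, else the cluster. How doublets were treated is not given in the sources used here, and no caller was run.

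UMIs were summed per label. Intervals are exact Clopper-Pearson for shares and log-normal for ratios, at 95%, for counting error only. A gene entered a comparison with at least 100 UMIs over both sides, and sides under 3 UMIs were set to 3. Called means 1.5-fold, with 1 library per group and no p-value. Named genes are the 3 highest and 3 lowest members per comparison, with at least 100 UMIs on each side, and listed paralogs and regulators. Other members were named for a known role, and Rps4y2, Rps18, Rps28 and S1pr1 after their values were seen. Members and lists were chosen with earlier results of these data known. Code was tested on simulated counts. Tools were matplotlib 3.10.9, pandas 2.3.3, Python 3.11.15, SciPy 1.17.1 and NumPy 2.4.6. The section was not used here, and some genes are not reported here.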

Additional observations from a re-analysis of the deposited data

Results flagged for a closer look

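Barcodes without an annotation entered no comparison above. In the thymocyte library, 28 such barcodes, with a median of 764.5 UMIs, had a ribosomal protein share of 0.642%. In the stromal library, 2934 such barcodes, with a median of 1219.5 UMIs, had a share of 8.25%. Both were set apart because they are data outside the comparisons that still carry ribosomal protein UMIs.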

How the results depend on the processing

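No paired analysis was possible because the groups hold 1 library each. In order (DP over DN, mature over DP, mature over DN, epithelial over fibroblast, endothelial over fibroblast), the ratios were 0.536, 2.02, 1.08, 1.32 and 0.973 thinned to 1000 UMIs. They were 0.531, 2.03, 1.08, 1.32 and 0.978 as means of single cells, and 0.597, 1.84, 1.10, 1.31 and 1.00 without mitochondrial and haemoglobin genes. By cluster they were 0.571, 1.77, 1.01, 1.28 and 1.00. Below the 99th percentile of depth the first 3 were 0.566, 1.89 and 1.07, and the last 0.985. Without the member with the most UMIs, DP over DN was 0.570, mature over DN 1.07 and epithelium 1.29. Cells of 3000 to 6000 UMIs gave 0.571, 1.78 and 1.02 on 7 DN cells, and stromal cells of 6000 to 12000 gave 1.34 for epithelium. The ratio of endothelium to fibroblasts crossed 1 by cluster (1.004), without mitochondrial and haemoglobin genes (1.0004) and in cells of 12000 to 24000 UMIs (1.008), and the cause was not tested. Alternatives chosen after seeing the data were cells of 6000 to 12000 UMIs (0.723, 1.53 and 1.11), stromal cells of 12000 to 24000 (epithelium 1.23), no Mature CD8-1 (1.79 and 1.02), no TMC4 (1.26 and 0.967) and no TEC:early Pr and TEC:cTEC (1.11). Members past 1.5-fold were 70 for mature over DP, 57 for DP over DN, 8 for epithelium and 2 for endothelium. A fold of 2 gave 28, 26, 1 and 0, and the matched windows chosen after seeing the data gave 43, 22, 4 and 0. Scaling without ribosomal protein and mitochondrial genes gave 16 for epithelium, and it moved the median log2 ratio of all genes from -0.32 to -0.06 for mature over DP and from 0.27 to 0.12 for DP over DN. Of 65 alternative values, 15 stayed within the main interval or within 1.5 times the count.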
